A study of Zea mays with 6 samples.

Results

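Transcripts of the lignin pathway were examined in maize seedlings that carry an extra dose of part of a chromosome. Probe sets were chosen where their single gene symbol, or a synonym of that gene in RefSeq, was 4CL, bm1, bm3, ccoaomt1, or pal, cad or ccr with an optional number. This gave 5 probe sets of 17621, 1 for each of 5 genes, namely PAL1 (LOC542258, also listed as pal3), 4CL (LOC542166), CCR (LOC542463, also cncr1), ccr2 (LOC542735, also cncr2) and BM1 (LOC542663, also CAD2). Among the 1452 probe sets with a single symbol, none carried bm3 or ccoaomt1 as symbol or RefSeq synonym, so these genes were not analysed here. Whether a probe set without such a name reads them was not tested. Measured values played no part in the choice, but it was made with earlier results of these data known.

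DpDf (duplicate-deficient) plants derive from the translocation T5-6b, and most of their chromosome 5 short arm is present in 3 copies, while a small end segment of chromosome 6 is present in 1 copy. Wild-type plants were siblings without the extra segment, grown from seed of selfed DpDf plants, and both groups shared the inbred B73 background. Shoot tips with meristem and leaf primordia were pooled from 8 seedlings aged 14 days, in 3 DpDf and 3 wild-type pools, and plants were sorted by genotype with a marker linked to the chromosome 5 breakpoint. Each pool was hybridised to 1 Affymetrix array. Pooling hides the spread between plants, and in such bulk tissue fewer cells of a type and less RNA per cell cannot be told apart.

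Lignin is a polymer of phenolic units that stiffens and waterproofs secondary cell walls, above all in xylem and fibres. Its monomers are made from phenylalanine along the general phenylpropanoid route, whose early steps also feed flavonoids and soluble phenolics. Shoot tips hold mostly dividing and expanding cells, with differentiating vascular strands in the young leaves. In maize, mutants of the brown midrib genes, among them BM1, have coloured leaf midribs and altered lignin.

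On 5 of the arrays intensities were distributed nearly alike, but wild type replicate 3 stood apart. Its Spearman correlations reached at most 0.932, and those between the remaining 5 arrays were at least 0.988. Over the 10661 probe sets that passed the filter on low values, the log2 difference (DpDf minus wild type) had a median of 0.18 in the fit of all 6 arrays and of 0.02 without wild type replicate 3. As a sign of RNA quality, the mean 3' over 5' signal of 5 control transcripts was taken on the log2 scale. It averaged 1.84 ± 0.73 in DpDf, against 1.07 ± 0.06 in wild type (SD, n = 3 each). The DpDf pools 1 to 3 read 2.68, 1.46 and 1.39, and the wild-type pools 1.0, 1.1 and 1.12. The groups did not overlap, so genotype and this signal cannot be told apart in any difference below. All differences below are on the log2(intensity + 1) scale, and a probe set was called where the adjusted p of limma was under 0.05.

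None of the lignin pathway genes was called. Of the 4 that passed the filter, 0 had an adjusted p under 0.05 with all 6 arrays and 0 once wild type replicate 3 was left out, where 0.0281% and 3.33% of all probe sets tested were called. In the second setting 3.07% were called higher in DpDf and 0.263% lower. At an unadjusted p under 0.05 the count was also 0 of 4 in both settings, against 9.76% and 20.3% of all probe sets. The differences of the 4 tested genes lay between -0.09 and 0.07 with all 6 arrays and between -0.12 and 0.10 without wild type replicate 3. A miss of the threshold does not show equal levels, and the 95% intervals below give the sizes that the data allow.

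PAL1 encodes phenylalanine ammonia-lyase, which opens the pathway by turning phenylalanine into cinnamic acid. Its intensity was 12106, 13676 and 15090 in the DpDf pools 1 to 3, against 13616, 14480 and 15342 in the wild-type pools 1 to 3. The groups overlapped, with DpDf replicate 1 lowest and wild type replicate 3 highest. Within pairs of the same replicate number, whose pools were grown together, the log2 difference of PAL1 was -0.17, -0.08 and -0.02. On the log2 scale PAL1 averaged 13.73 ± 0.16 in the DpDf pools and 13.82 ± 0.09 in the wild-type pools (SD, n = 3 each). The difference was -0.09 with a 95% interval of -0.41 to 0.23 (limma adjusted p = 0.728), and without wild type replicate 3 it was -0.05, from -0.30 to 0.20 (limma adjusted p = 0.807). For PAL1 the value of DpDf replicate 1, whose 3' over 5' signal was 2.68, minus the mean of the other DpDf pools was -0.25 on the log2 scale, and without this pool the difference of PAL1 was -0.01. The part of RNA quality in that low value was not tested. PAL belongs to a gene family, and whether this probe set also reads related copies was not tested.

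4CL encodes 4-coumarate:CoA ligase, which joins coenzyme A to hydroxycinnamic acids. Its intensity was 4062, 4071 and 4075 in the DpDf pools, against 3702, 3878 and 4028 in the wild-type pools. The lowest DpDf pool exceeded the highest wild-type pool, replicate 3, by a narrow margin, and the pair differences were 0.13, 0.07 and 0.02. Groups also failed to overlap in 26.8% of all probe sets tested, and in 42.9% once wild type replicate 3 was left out. The log2 level averaged 11.99 ± 0.002 for DpDf, against 11.92 ± 0.06 for wild type (SD, n = 3 each). The difference was 0.07, from -0.19 to 0.34 (limma adjusted p = 0.74), and without wild type replicate 3 it was 0.10, from -0.06 to 0.27 (limma adjusted p = 0.425). In fold terms the interval without wild type replicate 3 ran from 0.959 to 1.2. After quantile normalization the difference of 4CL turned to -0.07, so its sign depends on the scaling.

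CCR encodes cinnamoyl-CoA reductase, the first enzyme committed to monolignols, which turns the CoA esters into aldehydes. It read 2004, 2026 and 1709 in the DpDf pools, against 2151, 1987 and 1671 in the wild-type pools. The pools numbered 3, which per the labels came from the same planting, were the lowest of both groups. Wild type replicate 3 was also the array that stood apart, and the part of planting in these low values was not tested. Within pairs of the same number the difference was -0.10, 0.03 and 0.03. The group means on the log2 scale were 10.90 ± 0.14 for DpDf, against 10.91 ± 0.19 for wild type (SD, n = 3 each), a difference of -0.01 with an interval of -0.37 to 0.34 (limma adjusted p = 0.964). Leaving out wild type replicate 3, the lowest wild-type pool, gave -0.12, from -0.35 to 0.12 (limma adjusted p = 0.524).

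The gene ccr2 encodes another cinnamoyl-CoA reductase. Its signal was dim, at 274.2, 275.7 and 271.1 in the DpDf pools, against 282.8, 294.3 and 311.7 in the wild-type pools. Signals under the 40th percentile of their array, which lay between 310.8 and 320, were treated as background, a set bound rather than a measured detection limit. By this bound ccr2 was not above background on any DpDf array and above it on 1 of 3 wild-type arrays, replicate 3. It therefore failed the filter and was not tested, and its difference of -0.11, or -0.08 without wild type replicate 3, is given as a value alone, as are its pair differences of -0.04, -0.09 and -0.20.

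BM1 encodes cinnamyl alcohol dehydrogenase, which reduces the aldehydes to the alcohols that are polymerised into lignin. Its intensity was 7152, 6670 and 6350 in the DpDf pools, against 6225, 6692 and 6315 in the wild-type pools. The groups overlapped, and the highest pool was DpDf replicate 1. Within pairs the difference of BM1 was 0.20, -0.00 and 0.01. The log2 means were 12.71 ± 0.09 for DpDf, against 12.65 ± 0.06 for wild type (SD, n = 3 each). The difference was 0.07, from -0.21 to 0.35 (limma adjusted p = 0.769), and without wild type replicate 3 it was 0.06, from -0.14 to 0.25 (limma adjusted p = 0.718). Without DpDf replicate 1 it was 0.02, and after quantile normalization it turned to -0.05.

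**Figure D1:**
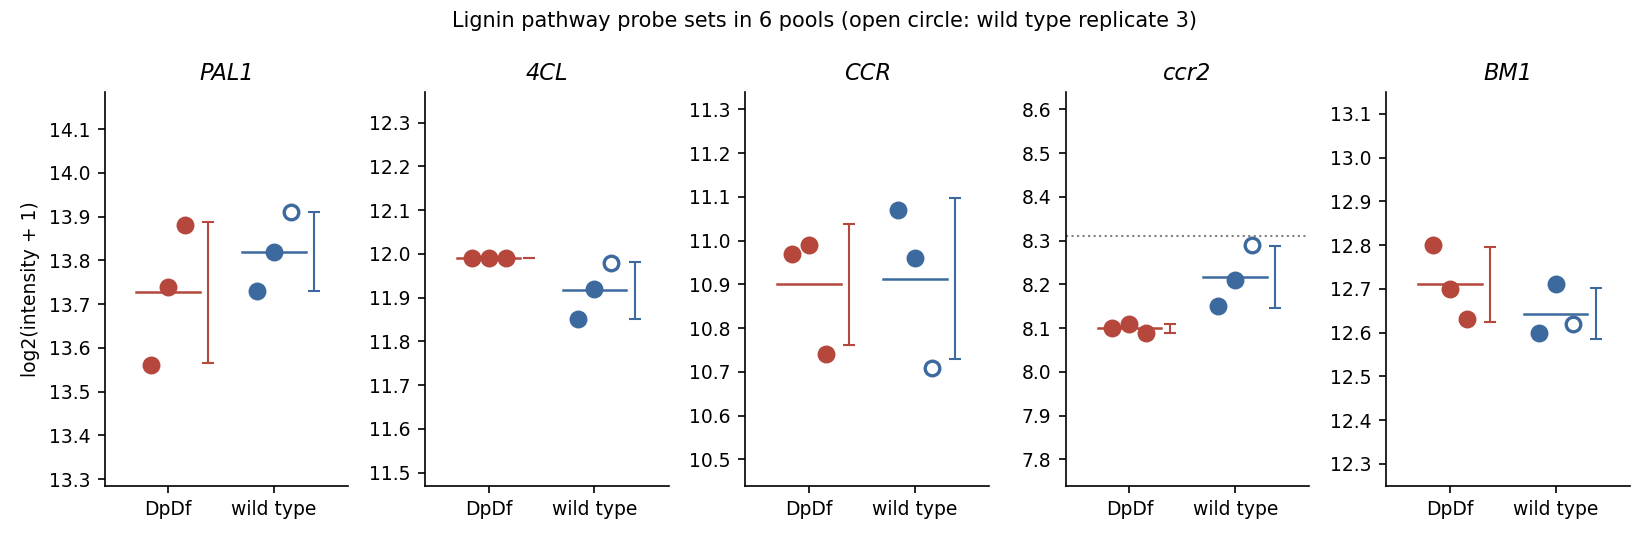
Log2(intensity + 1) of the 5 lignin pathway probe sets in each pool, with DpDf pools in red, wild-type pools in blue and wild type replicate 3 as an open circle. Lines are group means, bars beside them are the SD of 3 pools, all panels span the same log2 range, and the dotted line for ccr2 is the mean background bound. The DpDf pools of 4CL lie together at 11.99, while PAL1 and CCR spread more within each group than the groups differ.

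Of the 4 tested genes 4CL and BM1 had the most even signal. Over the 6 arrays the highest intensity exceeded the lowest 1.1-fold for 4CL and 1.15-fold for BM1, a log2 range of 0.14 and 0.20. The median range over all probe sets tested was 0.69, and only 1.24% and 3.75% of them had a smaller range than 4CL and BM1. The ratio of highest to lowest was 1.27-fold for PAL1 and 1.29-fold for CCR, and 14.1% and 16.4% of probe sets had a smaller range. The median range and these percentages include wild type replicate 3, the array that stood apart, and are not given without it. Without that array the log2 ranges were 0.14 for 4CL, 0.20 for BM1, 0.32 for PAL1 and 0.33 for CCR. The untested ccr2, close to background, had the same ratio as BM1, 1.15-fold, and without wild type replicate 3 its log2 range of 0.12 was the smallest of the 5 genes.

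Wild type replicate 3 deviated less in each of these genes than in the median probe set. Relative to the mean of wild type replicates 1 and 2 it differed by 0.13 for PAL1, 0.09 for 4CL, -0.31 for CCR, 0.11 for ccr2 and -0.03 for BM1. Over all probe sets tested the median of this deviation was -0.45 and the median size 0.49. It varied with level. At 13 or above on the log2 scale, where PAL1 lies, the median over 579 probe sets was -0.20. It was -0.52 for the 1641 probe sets between 11 and 12, the range of 4CL, and -0.56 for the 2548 between 10 and 11, the range of CCR. Under 9, where ccr2 lies, it was -0.22 over 1963 probe sets, and between 12 and 13, the range of BM1, it was -0.38 over 857. With all 6 arrays all 4 tested members had differences under the median of all probe sets, and minus that median they were -0.27 for PAL1, -0.10 for 4CL, -0.19 for CCR and -0.11 for BM1. Without wild type replicate 3 these values were -0.07, 0.08, -0.14 and 0.04, so 2 of the 4 lay above the median.

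**Figure D2:**
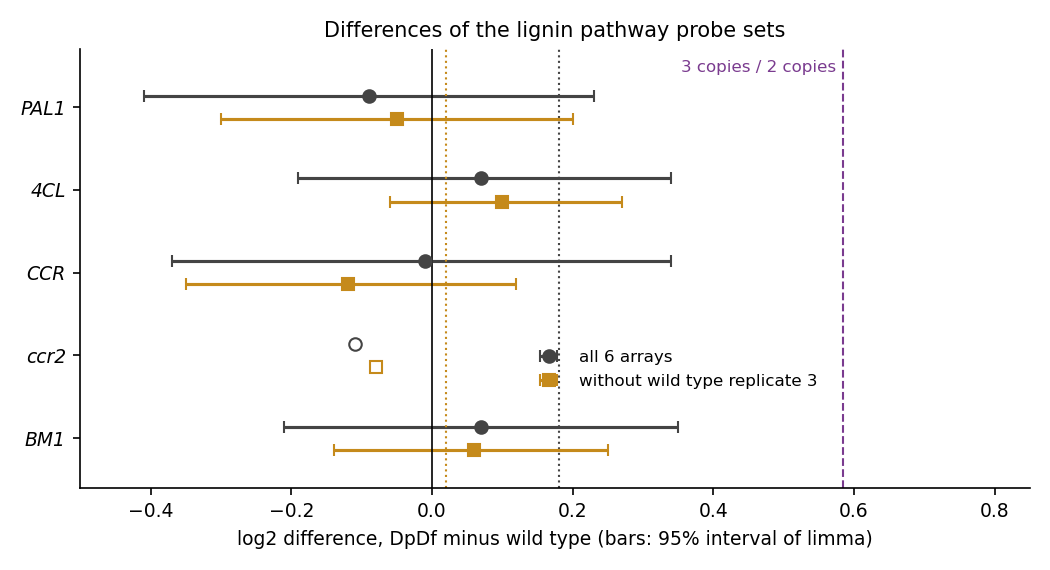
Log2 differences (DpDf minus wild type) of the 5 genes with their 95% limma intervals, for all 6 arrays (grey) and without wild type replicate 3 (yellow). Open symbols mark ccr2, which was not tested, dotted lines mark the median of all probe sets tested in each setting (0.18 and 0.02), and the dashed line marks 0.585, the log2 of 3 copies over 2. Each interval holds 0 and ends below the dashed line, which is a nominal ratio and does not settle copy number.

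The position of these genes bears on their copy number. By gene order in RefSeq's Zm-B73-REFERENCE-NAM-5.0, used here for names and order only, CCR lies on chromosome 1 and ccr2 on chromosome 7, while 4CL, BM1 and PAL1 lie on chromosome 5. Among the 92 named and measured genes of that chromosome, counted from the end of the short arm, 4CL was number 47, BM1 number 50 and PAL1 number 66. The labels place the break by genetic map and contig, on other maps than this assembly, so whether 4CL and BM1 lie inside the extra segment is not known here.

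The measured genes next to 4CL on the short-arm side were set beside those just beyond it. Without wild type replicate 3, the 5 measured genes just before it were TCTP (0.24), b-70 (0.21), gtc102 (0.42), rop9 (0.56) and the ribosomal protein gene RPL19 (0.62). In this setting rop9 (limma adjusted p = 0.0185) and RPL19 (limma adjusted p = 0.0155) were called. With all 6 arrays neither was (limma adjusted p = 0.302 and 0.329). Without wild type replicate 3 the intervals were 0.38 to 0.74 for rop9 and 0.45 to 0.79 for RPL19, above that of 4CL. Those of TCTP (0.07 to 0.41), b-70 (0.03 to 0.39) and gtc102 (0.17 to 0.66) met it. No difference between 4CL and a neighbour was tested. RPL19 and 4CL have 133 genes of the assembly between them. For TCTP, b-70, gtc102 and rop9 this number was 458, 405, 399 and 356. The 5 measured genes just after 4CL were the response regulator gene RR9 (0.16), H+-PPase (0.05), BM1 (0.06), pep7 (-0.07) and NIP1-1 (0.01), of which none was called. Between 4CL and these lie 48, 72, 108, 553 and 622 genes of the assembly, in the same order. With all 6 arrays the medians of the 5 before and the 5 after were 0.53 and 0.07, and without wild type replicate 3 they were 0.42 and 0.05.

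Of all 46 measured genes before 4CL, 44 had a larger difference than 4CL in both settings, and their median was 0.56 with all 6 arrays and 0.40 once wild type replicate 3 was left out. Of the 45 genes after it 28 and 16 did, with medians of 0.12 and 0.04. The 5 genes before 4CL were also set against it within each array, as their mean log2 value minus that of 4CL, centred on wild type replicates 1 and 2. This gave 0.29, 0.32 and 0.30 in the DpDf pools, against 0.07, -0.07 and -0.42 in the wild-type pools, so the groups did not overlap. The difference between groups was 0.44, and 0.30 without wild type replicate 3. The same quantity for the 5 genes after 4CL was -0.05, -0.05 and -0.09 in the DpDf pools, against 0.01, -0.01 and -0.36 in the wild-type pools. The groups overlapped, and their difference was 0.06, or -0.06 without wild type replicate 3. These neighbours were chosen after their values were seen, so both differences are descriptions with no test.

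All 4 tested members had intervals that ended below 0.585, the log2 of 3 copies over 2, in both settings. For 4CL the upper end was 0.34 with all 6 arrays and 0.27 once wild type replicate 3 was left out, and for BM1 it was 0.35 and 0.25. An end below 0.585 does not settle the copy number of a gene. Without wild type replicate 3 the 46 measured genes before 4CL had a median of 0.40, also under 0.585. Among them the intervals of TCTP and b-70 ended at 0.41 and 0.39. PAL1 lay farther along chromosome 5, where the 5 measured genes on either side had medians of -0.01 and -0.03 without wild type replicate 3. Of those 10 genes 1 was called in that setting, gpc4, which encodes a cytosolic glyceraldehyde-3-phosphate dehydrogenase and fell by 0.63 on the log2 scale (limma adjusted p = 0.0329).

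**Figure D3:**
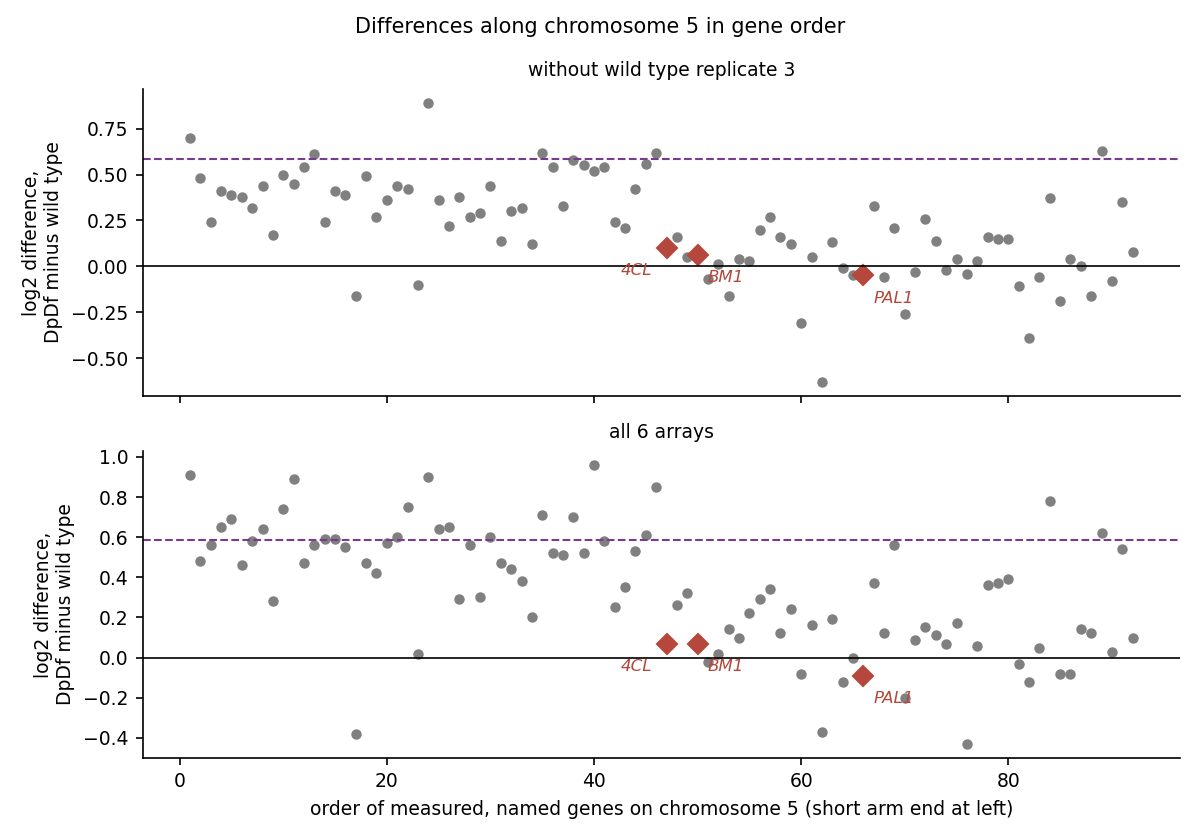
Log2 difference (DpDf minus wild type) of each of the 92 named and measured genes of chromosome 5 against its place in gene order, without wild type replicate 3 (top) and with all 6 arrays (bottom). Diamonds mark the lignin pathway genes, and the dashed line is 0.585. Of genes 1 to 46, 44 lie above 4CL in each panel, and without wild type replicate 3 both 4CL (number 47) and BM1 (number 50) lie at 0.10 and 0.06.

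Other genes of phenolic metabolism were read from lists of symbols. Among 8 further phenylpropanoid and lignin genes, only 2 passed the filter, and 0 were called in either direction in both settings. The peroxidase gene PER42 (LOC100101533), of a family whose enzymes oxidise monolignols among other substrates, had intensities of 2187, 2109 and 1595 in the DpDf pools, against 1288, 1214 and 1055 in the wild-type pools. Every DpDf pool was higher than every wild-type pool. Groups failed to overlap, in either direction, in 26.8% of all probe sets tested, and in 42.9% without wild type replicate 3. The difference of PER42 was 0.72 on the log2 scale with an interval of 0.32 to 1.11 (limma adjusted p = 0.302), and 0.64 without wild type replicate 3 (limma adjusted p = 0.0654). Another peroxidase gene, PER1 (LOC542029, also pox1), lay the other way, at 1442, 1755 and 1629 in the DpDf pools, against 2127, 1965 and 1816 in the wild-type pools. Its difference was -0.29 (limma adjusted p = 0.543) and -0.35 without wild type replicate 3 (limma adjusted p = 0.128). The median of these 2 was 0.21, against 0.18 over all probe sets with all 6 arrays, and 0.14 against 0.02 without wild type replicate 3. The other 6 failed the filter.

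The methyl donor used in lignin synthesis is S-adenosylmethionine. The gene sam2 (LOC542733), named for its synthetase, read 18444, 18134 and 18522 in the DpDf pools, against 16128, 16881 and 16424 in the wild-type pools. The groups did not overlap, as in 26.8% of all probe sets tested with all 6 arrays. The gene sam2 was not called, with a difference of 0.16 (limma adjusted p = 0.567) and of 0.15 once wild type replicate 3 was left out (limma adjusted p = 0.263). The median of all probe sets was 0.18 in the fit of all arrays, above sam2, and 0.02 in the other, below it.

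The flavonoid branch leaves the pathway after 4CL. Of 11 probe sets from 6 genes, 5 passed the filter and 0 were called in either direction in both settings. Their median was 0.19, against 0.18 over all probe sets, and -0.03 against 0.02 without wild type replicate 3. The gene f3h, which encodes flavanone 3-hydroxylase, read 2435, 2300 and 2512 in the DpDf pools, against 1635, 2101 and 1879 in the wild-type pools, a difference of 0.37 (limma adjusted p = 0.465) and of 0.38 without wild type replicate 3 (limma adjusted p = 0.141). The anthocyanin gene a2 lay at 0.46 (limma adjusted p = 0.411), and at 0.38 without wild type replicate 3 (limma adjusted p = 0.123). The MYB regulator genes c1 and pl1 lay at -0.49 and -0.63 with all 6 arrays and at -0.25 and -0.26 without wild type replicate 3, where their adjusted p-values in limma were 0.219 and 0.263.

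Regulators of lignin genes were represented by myb31 and myb42, which encode MYB repressors of lignin synthesis. In myb31 all DpDf pools, at 773.8, 676.1 and 673.2, lay above the wild-type pools, at 566.7, 604.9 and 619.8. Groups also failed to overlap in 26.8% of all probe sets tested with all 6 arrays. The difference of myb31 was 0.24 (limma adjusted p = 0.562), and 0.27 without wild type replicate 3 (limma adjusted p = 0.172). The brighter probe set of myb42 lay at -0.17 (limma adjusted p = 0.568) and at -0.11 without wild type replicate 3 (limma adjusted p = 0.443), and the dimmer one failed the filter.

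Genes of secondary wall cellulose are used in the same cells as lignin, and 4 were measured, namely cesa10, cesa11, CesA12 and the brittle stalk gene bk2. Their differences were 0.26, 0.18, 0.48 and 0.13 with all 6 arrays and 0.24, 0.21, 0.30 and 0.16 once wild type replicate 3 was left out. None was called in either setting, the limma adjusted p-values without wild type replicate 3 being 0.183, 0.195, 0.211 and 0.325 in the same order. In that setting all 4 had groups that did not overlap, a pattern that 42.9% of all probe sets also had, and their median was 0.22 against 0.02. With all 6 arrays their median was also 0.22, but that of all probe sets was 0.18. There 3 of the 4 did not overlap, against 26.8% of all probe sets. The summed intensity of the 4 genes ran from 9065 to 9587 in DpDf and from 7512 to 8084 in wild type. Whether they differ from the lignin pathway genes in their response was not tested.

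**Figure D4:**
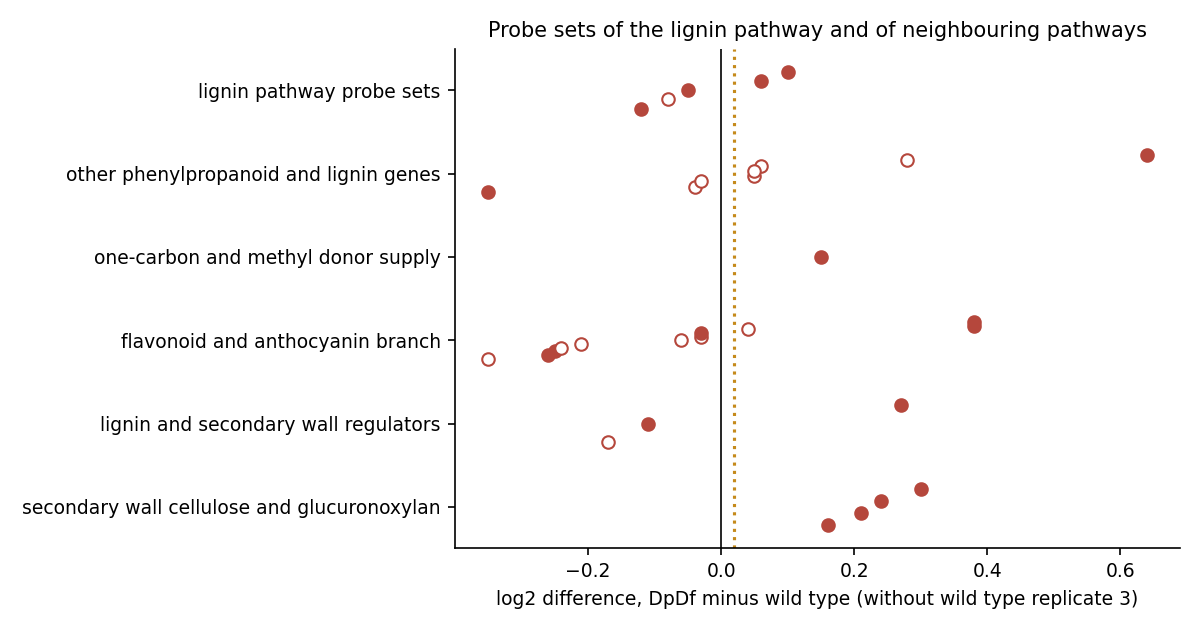
Log2 differences (DpDf minus wild type, without wild type replicate 3) of single probe sets, for the 5 lignin pathway genes and for lists of neighbouring pathways. Filled circles passed the filter on low values and were tested, open circles were not tested, and the dotted line is the median of all probe sets tested, 0.02. The lignin pathway genes lie within -0.12 to 0.10, and PER42 lies farthest right, at 0.64.

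Markers of the sampled tissue were present in both groups. The meristem gene kn1 read 1369, 1167 and 874.1 in the DpDf pools, against 993.8, 1208 and 1006 in the wild-type pools, above the background bound on every array. Of 8 probe sets matched by the list of meristem names, 5 passed the filter, 0 were called in both settings, and some matched other genes that share a name. Leaf photosynthesis genes were bright, with a summed intensity over 17 probe sets of 115989 to 118174 in DpDf and 96896 to 111353 in wild type. Of the 16 that passed the filter, 0 were called in both settings. The leaf and secondary wall sums thus lay higher in all DpDf pools, while single probe sets failed to overlap in 26.8% of all tested. The sums of the 8 probe sets matched by meristem names overlapped, at 9168 to 10085 in DpDf and 7024 to 9724 in wild type. Their largest part was abp1 (LOC542232), at 6236, 6877 and 6521 in the DpDf pools, against 6801, 6545 and 4443 in the wild-type pools. The overlap is therefore not a result about meristem markers as a set. Such sums mostly follow their brightest probe sets. Without wild type replicate 3, 11 of the 16 leaf probe sets lay above the median of all probe sets and 5 below it. These 16 come from only 9 genes, so they are not separate observations. The part of these sums in the values of the lignin pathway genes was not tested.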

How the data were processed

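RNA of 6 pools was measured on Affymetrix maize arrays, 1 array for each. The values the authors deposited are linear intensities, read as such from their range. GCOS 1.2 and GCRMA are named, per the submitters' processing notes, without role or order, and the background correction and scaling are not given here. The number of arrays limits the precision.

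Values were turned into log2(intensity + 1). After 113 controls were set aside, probe sets that reached the 40th percentile of their array on 3 or more arrays were tested (10661 of 17621, 60.5%). The groups were fitted in limma 3.58.1 (R 4.3.3, lmFit and eBayes) without a block, p-values were adjusted over all tested probe sets by Benjamini-Hochberg, and the threshold was 0.05. Python 3.11.15 made the tables and figures. Members and lists were chosen with earlier results of these data known.

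Of the probe sets 1452 had a single symbol and 1 had several in the platform table, and 1060 of 1108 gene identifiers matched RefSeq. The text names every member and, from each other list, any gene called and otherwise up to 4 of smallest p; kn1 is named as a tissue marker. Genes beside the members on chromosome 5 were taken by position, 5 on either side, a choice made after seeing the data. Each gene of that chromosome was read from its tested probe set of highest mean level. A list of shikimate and aromatic amino acid genes matched no probe set.

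Per the labels, a replicate number marks a DpDf and a wild-type pool grown together from sibling seed, which pairs them. Their deviations from the group means had correlations of 0.076, -0.164 and 0.195. Alternatives were a pseudocount of 16, no filter, quantile normalization, array weights, the replicate number as a block, and single arrays left out.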

Additional observations from a re-analysis of the deposited data

How the results depend on the processing

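Differences of the 4 tested lignin pathway genes were recomputed under 12 alternatives, 48 values in all. None passed the threshold (limma adjusted p-values 0.38 to 0.984), 43 kept their sign and 5 turned. Quantile normalization turned 4CL to -0.065 and BM1 to -0.051. It also lowered PAL1 from -0.092 to -0.15 and CCR to -0.206, the lowest value of CCR under any alternative. CCR, at -0.014, turned to 0.066 without wild type replicate 1, to 0.009 without wild type replicate 2 and to 0.065 without DpDf replicate 3; with single arrays left out it ran from -0.116 to 0.066. PAL1 stayed between -0.169 and -0.01. The count of lignin pathway genes called was 0 under each alternative. Over all probe sets the count of calls ranged from 2 to 355 with single arrays left out, 355 being that without wild type replicate 3, against 3 with all 6 arrays. Array weights, which gave wild type replicate 3 a weight of 0.0423, called 1224 of the 10661 tested. Among them were 2 of the 2 tested further phenylpropanoid and lignin genes and 1 of the 5 tested flavonoid genes. With the replicate block 3 probe sets were called, and 4 without replicate 3 of both groups; the block changed no call of the lignin pathway genes. With ccr2 kept in by dropping the filter, its adjusted p was 0.572. The small number of arrays and the closeness of ccr2 to background limit these results.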

Other observations

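For each lignin pathway gene the 3 named probe sets with the most similar profile were found by the root mean square difference of log2 values, each taken about its own mean over the 6 arrays, among 977 named probe sets of other genes (978 for ccr2). Profiles were closest to 4CL in the aquaporin gene pip1-2 (0.027), hsfb (0.032) and GIF2 (0.034), where the median over all candidates was 0.220. BM1 was closest to both probe sets of ABP3 (also ADF3, an actin-depolymerising factor gene, 0.027 and 0.034) and to gar2 (0.035). CCR was closest to LOC732740 (0.035), the histone deacetylase gene HDA108 (0.045) and the enolase gene eno1 (0.050). PAL1 was closest to MNB1b (0.049), LOC542227 (0.054) and hir2 (0.054), and ccr2 to ITPK1 (0.037), the glutathione transferase gene gst31 (0.041) and phyS11 (0.042). All profiles come from the same 6 arrays, and the members' own ranges over them were small (0.14 to 0.36 on the log2 scale).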
